A study of Sus scrofa with 6 samples.

Results

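Genes of antigen processing and of the major histocompatibility complex (MHC) were followed in the lung of 6 female piglets around birth. The members were 10 genes chosen by name: B2M, TAP1, TAP2, TAPBP, PSMB8, PSMB9, CD74, CIITA, SLA-DRA and SLA-DQA1, where SLA stands for swine leukocyte antigen, the MHC of the pig. Of the 10 members, 4 could be matched by name to 1 of the 14579 messenger RNAs (mRNAs) measured, namely SLA-DRA, CIITA, TAPBP and TAP1. The other 6 members were not analysed here. To set these 4 beside the rest of the pathway, 42 companion genes were read from the same measurements, out of 82 symbols on 7 lists. The lists cover MHC class I chains and relatives, peptide supply and loading, the immunoproteasome, the constitutive proteasome, class II chains, class II processing and transcription regulators.

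All piglets were Tibetan-Meishan hybrids, with a Tibetan pig as sire and a Meishan pig as dam. The fetal group, which the labels call prenatal, held 3 piglets from 3 sows, taken on the last day before birth, and the neonatal group held 3 piglets from another 3 sows, taken 2 days after birth. No sow gave a piglet to both groups, so stage and litter cannot be told apart, and no agent or genetic change is named for either group. Whole lung tissue was sequenced, so fewer cells of a type and less RNA per cell cannot be told apart. Libraries are named Fetal1 to Fetal3 and Neonatal1 to Neonatal3. Levels are given in FPKM, fragment counts divided by transcript length and by the mapped fragments of the library, which can be compared between genes. Differences are neonatal minus fetal of mean log2(FPKM + 1), where the added 1 shrinks the change of low genes, and were tested in limma with a Benjamini-Hochberg adjusted p of 0.05 or less as the threshold.

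MHC class I molecules show peptides from inside the cell to cytotoxic T cells. The proteasome cuts proteins into peptides, the TAP1-TAP2 transporter carries these into the endoplasmic reticulum, and tapasin (TAPBP), calreticulin and their partners load them onto a class I heavy chain bound to beta-2-microglobulin (B2M). MHC class II molecules are built from an alpha and a beta chain, are held by macrophages, dendritic cells and B cells in the main, and show peptides cut by lysosomal cathepsins after the invariant chain CD74 has been removed. CIITA is the coactivator that switches on class II genes. In the lung these genes are known above all in alveolar macrophages, dendritic cells and alveolar type II cells.

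Lung markers were abundant in every library. The summed FPKM of 10 lung tissue markers lay between 5495 and 6417 in fetuses and between 7154 and 12732 in neonates, and none of them was at 0 in all libraries. The club cell marker SCGB1A1 stood at 0.213 FPKM in Neonatal2 and between 62.0 and 138.5 FPKM in the other libraries. Over all mRNAs the median difference was 0.13, and it was -0.0090 after median-of-ratios scaling and -0.038 after quantile normalization, so small differences below are best read relative to it. The count of mRNAs past the threshold, 1001, was 944 without Neonatal1 and between 196 and 397 without any other library. Of the 1001, 78.8% were higher in neonates, against 66.0% of 985 after median-of-ratios scaling and 57.9% of 1155 after quantile normalization.

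None of the 4 measured members passed the threshold, where 6.87% of all mRNAs did and 5.41% did so as higher in neonates. SLA-DRA, CIITA and TAPBP had a higher mean in neonates, also after median-of-ratios scaling and quantile normalization. TAP1 reached the 0.5 FPKM that the authors required of 1 library only in Neonatal3, so its direction was set by that filter. In SLA-DRA, CIITA and TAPBP the values of the groups overlapped, whereas 30.5% of all mRNAs had groups that did not overlap. TAP1 was listed at 0 in 5 libraries, so its groups had to overlap and it does not inform the counts of this paragraph. In limma the count was 0 of 4 at an unadjusted p under 0.05 too, where 3535 of all 14579 mRNAs had such a p. The count past the threshold was 0 under each alternative setting. The median difference of SLA-DRA, CIITA and TAPBP was 0.65, beside 0.13 over all mRNAs and 0.52 over the 42 companion genes, and it was 0.23 after quantile normalization.

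SLA-DRA (ENSSSCG00000001453, listed under the name HLA-DRA), the alpha chain of the class II molecule DR, was the most abundant of the 4 measured members. Its level was 127.7, 76.3 and 102.7 FPKM in Fetal1 to Fetal3 and 82.8, 168.9 and 299.2 FPKM in Neonatal1 to Neonatal3. Neonatal2 and Neonatal3 lay above all fetuses, while Neonatal1 lay below Fetal1 and Fetal3. The group means were 102.25 ± 25.7 and 183.6 ± 109.0 FPKM (SD, n = 3 each), a difference of 0.68 (SE 0.46, 95% interval -0.39 to 1.75, limma adjusted p = 0.401). The interval covers a lower as well as a clearly higher level after birth, so equal levels are not shown either. The value rested on which neonate was counted, with 1.16 without Neonatal1 (adjusted p = 0.106) and 0.24 without Neonatal3 (adjusted p = 0.752). It was 0.51 after median-of-ratios scaling and 0.23 after quantile normalization. In each library SLA-DRA stood between the 95.9 and the 97.9 percentile of all mRNAs, so class II transcript was abundant in the lung already on the last day before birth.

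CIITA (ENSSSCG00000007901) was measured at 4.04, 4.48 and 2.76 FPKM in the fetuses and at 4.14, 6.22 and 9.84 FPKM in the neonates. As with SLA-DRA, Neonatal2 and Neonatal3 were above every fetus, and Neonatal1 fell inside the fetal range. The means of 3.76 ± 0.896 and 6.74 ± 2.88 FPKM (SD, n = 3 each) differed by 0.65 (SE 0.31, 95% interval -0.06 to 1.37, limma adjusted p = 0.241). With any library left out the difference stayed between 0.38 and 0.91 and short of the threshold. SLA-DRA FPKM was 17.0 to 37.3 times that of CIITA in the 6 libraries, with overlapping groups.

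TAPBP (ENSSSCG00000001507) encodes tapasin, which bridges empty class I molecules to the TAP transporter. Its level was 10.3, 8.69 and 13.2 FPKM in the fetuses and 19.5, 9.01 and 13.9 FPKM in the neonates. Here Neonatal1 was the highest library of all and Neonatal2 lay inside the fetal range, an order unlike that of SLA-DRA and CIITA. The means were 10.7 ± 2.29 and 14.1 ± 5.26 FPKM (SD, n = 3 each), with a difference of 0.33 (SE 0.29, 95% interval -0.36 to 1.01, limma adjusted p = 0.528) that came to 0.08 without Neonatal1.

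TAP1 (ENSSSCG00000025618), a subunit of the peptide transporter, was listed at 0 in 5 libraries and at 0.541 FPKM in Neonatal3. No fold is given, since a listed 0 in a table without read counts can be a failed estimate. In the Sscrofa11.1 annotation TAP1 lies between PSMB8 and PSMB9, and TAP2 lies between SLA-DOB and PSMB8, so 4 of the 10 members are direct neighbours within the MHC. TAPBP, between RGL2 and ZBTB22, and SLA-DRA, next to BTNL2, are on the same chromosome, while CIITA, between DEXI and TVP23A, is not.

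**Figure D1:**
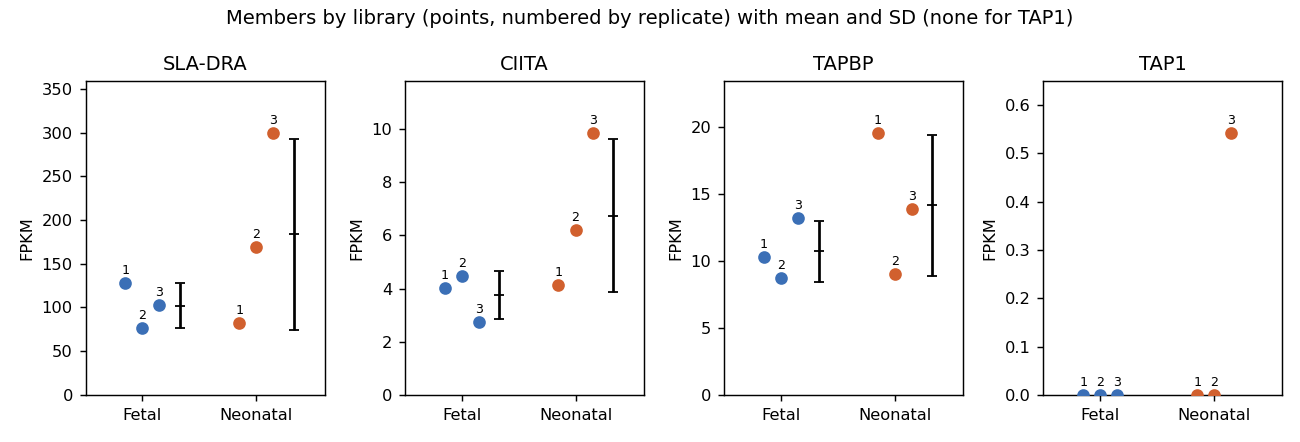
FPKM of SLA-DRA, CIITA, TAPBP and TAP1 (a linear axis from 0 in each panel, scaled per gene) in the 3 fetal and 3 neonatal libraries, with points numbered by replicate and bars for the mean and SD except for TAP1. For SLA-DRA and CIITA Neonatal3 is the highest library and Neonatal1 lies among the fetuses, for TAPBP Neonatal1 is the highest at 19.5 FPKM, and TAP1 is above 0 in Neonatal3 only.

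The order of the levels was SLA-DRA, TAPBP, CIITA and TAP1 in 6 of 6 libraries. SLA-DRA FPKM was 4.24 to 21.5 times that of TAPBP. TAPBP was 1.41 to 4.79 times CIITA, the closest neighbours in that order, and their ranges over the libraries, 8.69 to 19.5 and 2.76 to 9.84 FPKM, overlapped. The ranges of SLA-DRA and TAPBP did not.

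Class II chains beside SLA-DRA were 6 genes, of which 2 rose past the threshold, where 5.41% of all mRNAs did. After median-of-ratios scaling or quantile normalization 1 of the 6 rose past it. HLA-DOB passed 0.5 FPKM in a neonate only, so the filter set its direction; the other 5 had a higher mean in neonates, with a median difference of 0.73 (0.38 after quantile normalization). The largest difference belonged to HLA-DRB1 (ENSSSCG00000001455), the beta chain that pairs with the DR alpha chain. Its name came from the study's table of genes called changed in these same libraries, so its presence here is tied to the outcome. Its level was 1.28, 0.892 and 0.790 FPKM in the fetuses and 29.5, 12.1 and 58.2 FPKM in the neonates. The lowest neonate thus lay far above the highest fetus. From 0.987 ± 0.259 to 33.3 ± 23.3 FPKM (SD, n = 3 each), HLA-DRB1 rose by 3.86 (SE 0.49, limma adjusted p = 0.00738). It stayed past the threshold without any library but Fetal2 (adjusted p = 0.0577 without it). DR beta genes are polymorphic and have near-identical copies whose reads the counting could split, so this level is uncertain.

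SLA-DRA and HLA-DRB1 code for partners in the same molecule, but their measured levels were not at a fixed ratio. HLA-DRB1 was named because the study called it changed in these libraries, and its level is uncertain. A shift of this ratio is thus no separate finding about the transcripts. SLA-DRA FPKM was 99.8, 85.6 and 130.1 times that of HLA-DRB1 in the fetuses and 2.80, 13.96 and 5.14 times in the neonates. Against SLA-DQB1, the beta chain of DQ, the ratio was 2.15, 2.32 and 2.27 in the fetuses and 1.46, 2.54 and 2.74 in the neonates, with overlapping groups. SLA-DQB1 itself was measured at 59.3, 32.9 and 45.2 FPKM before birth and 56.5, 66.6 and 109.0 FPKM after it, a difference of 0.73 (adjusted p = 0.213), or 0.38 after quantile normalization. These ratios were chosen after the values had been seen and carry no test.

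SLA-DOA, the alpha chain of DO, which restrains peptide exchange on class II, was the other class II chain that rose. It went from 0.769 ± 0.516 to 3.92 ± 1.67 FPKM (SD, n = 3 each), by 1.45 (SE 0.33, limma adjusted p = 0.0464). Its values were 1.36, 0.531 and 0.415 FPKM in the fetuses and 2.096, 5.39 and 4.26 FPKM in the neonates. This call did not hold after median-of-ratios scaling (adjusted p = 0.0503) or quantile normalization (adjusted p = 0.0551), and it held only when Neonatal1 was the library left out (adjusted p otherwise from 0.0788 to 0.186). Its partner HLA-DOB stayed under 1 FPKM in every library, with a difference of 0.36 (adjusted p = 0.406). SLA-DMA and SLA-DMB, the chains of the DM molecule that loads peptides on class II, differed by 0.57 (adjusted p = 0.177) and 0.63 (adjusted p = 0.360). Quantile normalization gave 0.34 for each, and without Fetal2 the differences were 0.37 and 0.32; SLA-DMB came to 0.32 without Neonatal3 as well. SLA-DMA was nevertheless higher in all neonates (22.8 to 29.7 FPKM) than in any fetus (12.7 to 20.3 FPKM).

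Over these 8 genes, namely SLA-DRA, CIITA and the 6 other class II chains, Neonatal3 was the highest library for 6 and Neonatal2 for 2. Fetal2 was the lowest library for 4 and Fetal3 for 4. Neonatal3 also had the largest median-of-ratios size factor, 1.15, and Fetal2 the smallest, 0.908. The FPKM summed over all mRNAs differed more widely, from 339491 in Fetal2 to 777982 in Neonatal3. The part of scaling in each gene's order was not tested beyond the scalings given above.

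**Figure D2:**
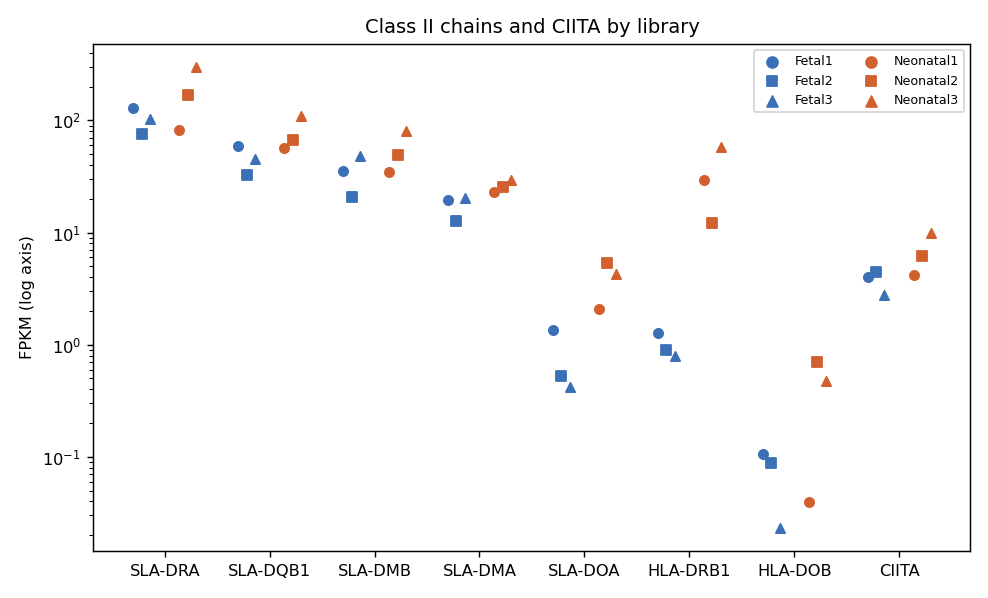
FPKM (log axis) of SLA-DRA, the 6 other class II chains and CIITA in each library, with blue for fetal and orange for neonatal and a marker shape per replicate number. HLA-DRB1, SLA-DOA and SLA-DMA are higher in every neonate than in every fetus, whereas Neonatal1 lies among the fetuses for SLA-DRA, SLA-DQB1, SLA-DMB, HLA-DOB and CIITA.

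Genes of class II processing, most of them enzymes that prepare peptides, had a median difference of 1.03, the largest of the 7 lists. Of 8 genes, 6 had a higher and 2 a lower mean in neonates. A rise past the threshold was found for 3, beside 5.41% of all mRNAs. After median-of-ratios scaling or quantile normalization 5 had a higher and 3 a lower mean. CTSL, the lysosomal protease cathepsin L, was measured at 1.67, 1.38 and 1.08 FPKM in the fetuses and 7.55, 9.62 and 12.5 FPKM in the neonates. It rose by 2.18 (SE 0.23, limma adjusted p = 0.00435) and no single left-out library cost it the call (adjusted p from 0.0172 to 0.0431). IFI30, the lysosomal thiol reductase that opens disulfide bonds of antigens, rose from 11.4 ± 2.67 to 53.1 ± 19.0 FPKM (SD, n = 3 each), by 2.08 (SE 0.31, limma adjusted p = 0.0115). Its call was lost without Fetal2, Fetal3, Neonatal2 or Neonatal3, at adjusted p from 0.0511 to 0.0673. LGMN, the asparagine endopeptidase legumain, rose from 27.1 ± 9.85 to 63.1 ± 7.56 FPKM, by 1.24 (adjusted p = 0.0408), and held only when Fetal1 was the library left out (adjusted p otherwise from 0.0652 to 0.141).

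The cathepsin named CTSV, a close relative of CTSL, went the other way in mean, from 111.6 ± 21.3 to 69.3 ± 15.5 FPKM (SD, n = 3 each), and was singled out after its values had been seen. Its difference of -0.69 missed the threshold (adjusted p = 0.148), but passed it after median-of-ratios scaling (-0.86, adjusted p = 0.0495) and quantile normalization (-1.06, adjusted p = 0.0116). CTSV was lower in each neonate (55.5 to 86.05 FPKM) than in each fetus (88.45 to 130.4 FPKM). The names of both cathepsins follow the reference table, and their reads could be split between relatives.

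Class I relatives described here were 3 genes, of which 1 had a higher and 2 a lower mean in neonates, and none passed the threshold. FCGRT, the heavy chain of the neonatal Fc receptor, carries immunoglobulin G across cells. Its level was 162.3, 119.4 and 166.6 FPKM before birth and 192.2, 259.0 and 317.6 FPKM after it. All neonates were above all fetuses, but the difference of 0.76 missed the threshold (limma adjusted p = 0.148) and was 0.58 after median-of-ratios scaling and 0.26 after quantile normalization. MR1, which shows vitamin B metabolites to T cells, differed by -0.23 (adjusted p = 0.735), and PROCR, the endothelial protein C receptor, by -0.37 (adjusted p = 0.458). Both had overlapping groups. In limma 1 of the 3, FCGRT, had an unadjusted p under 0.05, and none did after quantile normalization. Such a p was found for 3535 of all 14579 mRNAs, and for 3754 after quantile normalization.

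Peptide supply and loading for class I, the pathway of TAPBP and TAP1, held 12 companion genes. A rise past the threshold was found for 2, beside 5.41% of all mRNAs. Of the 12, 11 had a higher and 1 a lower mean in neonates, with a median difference of 0.46. The split was 9 higher and 3 lower after median-of-ratios scaling and 8 higher and 4 lower after quantile normalization. CALR, the chaperone calreticulin of the peptide-loading complex, rose from 125.5 ± 22.4 to 288.1 ± 50.6 FPKM (SD, n = 3 each), by 1.19 (SE 0.25, limma adjusted p = 0.0350). HSPA5, the endoplasmic reticulum chaperone BiP, which serves many proteins besides class I, rose from 81.6 ± 12.4 to 188.7 ± 31.2 FPKM, by 1.198 (SE 0.23, adjusted p = 0.0258). Both calls held without Neonatal1 and were lost without any other library, at adjusted p from 0.0688 to 0.138. PDIA3, the disulfide isomerase that is bound to tapasin in the complex, differed by 0.56 (adjusted p = 0.206), and TAPBPL, a relative of tapasin, by 0.46 (adjusted p = 0.347).

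Within each library TAPBP was compared with PDIA3, its partner. TAPBP was at 0.193, 0.184 and 0.195 times the FPKM of PDIA3 in the fetuses and at 0.202, 0.142 and 0.153 times in the neonates. Neonatal1, the library with the highest TAPBP, also had the highest PDIA3, 96.8 FPKM, and its ratio lay close to the fetal ones.

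Of the immunoproteasome and its activator, 3 genes were measured, PSME1, PSME2 and PSME3, which code for activator caps of the proteasome. All 3 had a higher mean in neonates and none passed the threshold, with a median difference of 0.69. PSME2 differed by 0.95 (limma adjusted p = 0.183), PSME3 by 0.69 (adjusted p = 0.139) and PSME1 by 0.61 (adjusted p = 0.168). All 3 had an unadjusted p under 0.05, against 0 of 3 after median-of-ratios scaling or quantile normalization. Of all 14579 mRNAs, 3535 had such a p, 3631 after median-of-ratios scaling and 3754 after quantile normalization. For PSME1 and PSME3 the groups did not overlap, as for 30.5% of all mRNAs. PSMB7, a catalytic subunit of the constitutive proteasome, differed by 0.27 (adjusted p = 0.533), and by -0.13 after quantile normalization. The inducible subunits that would be compared with it were not analysed here.

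Regulators of MHC transcription beside CIITA were 9 genes, of which 5 had a higher and 4 a lower mean in neonates. A rise past the threshold was found for 2, beside 5.41% of all mRNAs. The median difference of the 9 was 0.19. IRF1, an interferon-induced activator of class I and CIITA genes, was measured at 15.4, 9.21 and 16.1 FPKM in the fetuses and at 26.6, 36.7 and 66.3 FPKM in the neonates. IRF1 rose by 1.54 (SE 0.36, limma adjusted p = 0.0488). SPI1, the myeloid and B cell factor PU.1, rose from 14.03 ± 2.44 to 33.04 ± 7.98 FPKM (SD, n = 3 each), by 1.16 (SE 0.24, adjusted p = 0.0329). Both calls held without Neonatal1 and were lost without any other library, at adjusted p from 0.0814 to 0.188.

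As with SLA-DRA and CIITA, Neonatal3 was the highest library for IRF1. NFYB, a subunit of the factor NF-Y that binds MHC promoters, was named after its values had been seen. NFYB was lower in mean after birth, by -0.64 (adjusted p = 0.102), and past the threshold after median-of-ratios scaling (-0.80, adjusted p = 0.0440) and quantile normalization (-0.80, adjusted p = 0.0413). RFX5, a subunit of the factor that CIITA joins at class II promoters, differed by 0.19 (adjusted p = 0.755), with its highest level, 7.82 FPKM, in Neonatal1; it too was named after its values had been seen.

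Counted together, 33 of the 42 companion genes had a higher and 9 a lower mean in neonates. A count of 9 in 42 passed the threshold, all as higher, where 5.41% of all mRNAs were higher past it. After median-of-ratios scaling or quantile normalization 10 passed, 8 as higher and 2, CTSV and NFYB, as lower. HLA-DRB1 was the 1 companion named only by the study's table of changed genes. Without it 8 of 41 were higher past the threshold, against 6.05% of the 9478 mRNAs with an Ensembl name. For 18 the neonates were all above the fetuses and for 3 all below, against 30.5% of all mRNAs without overlap in either direction. The lists were chosen with earlier results of these data known, so these counts are a description.

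**Figure D3:**
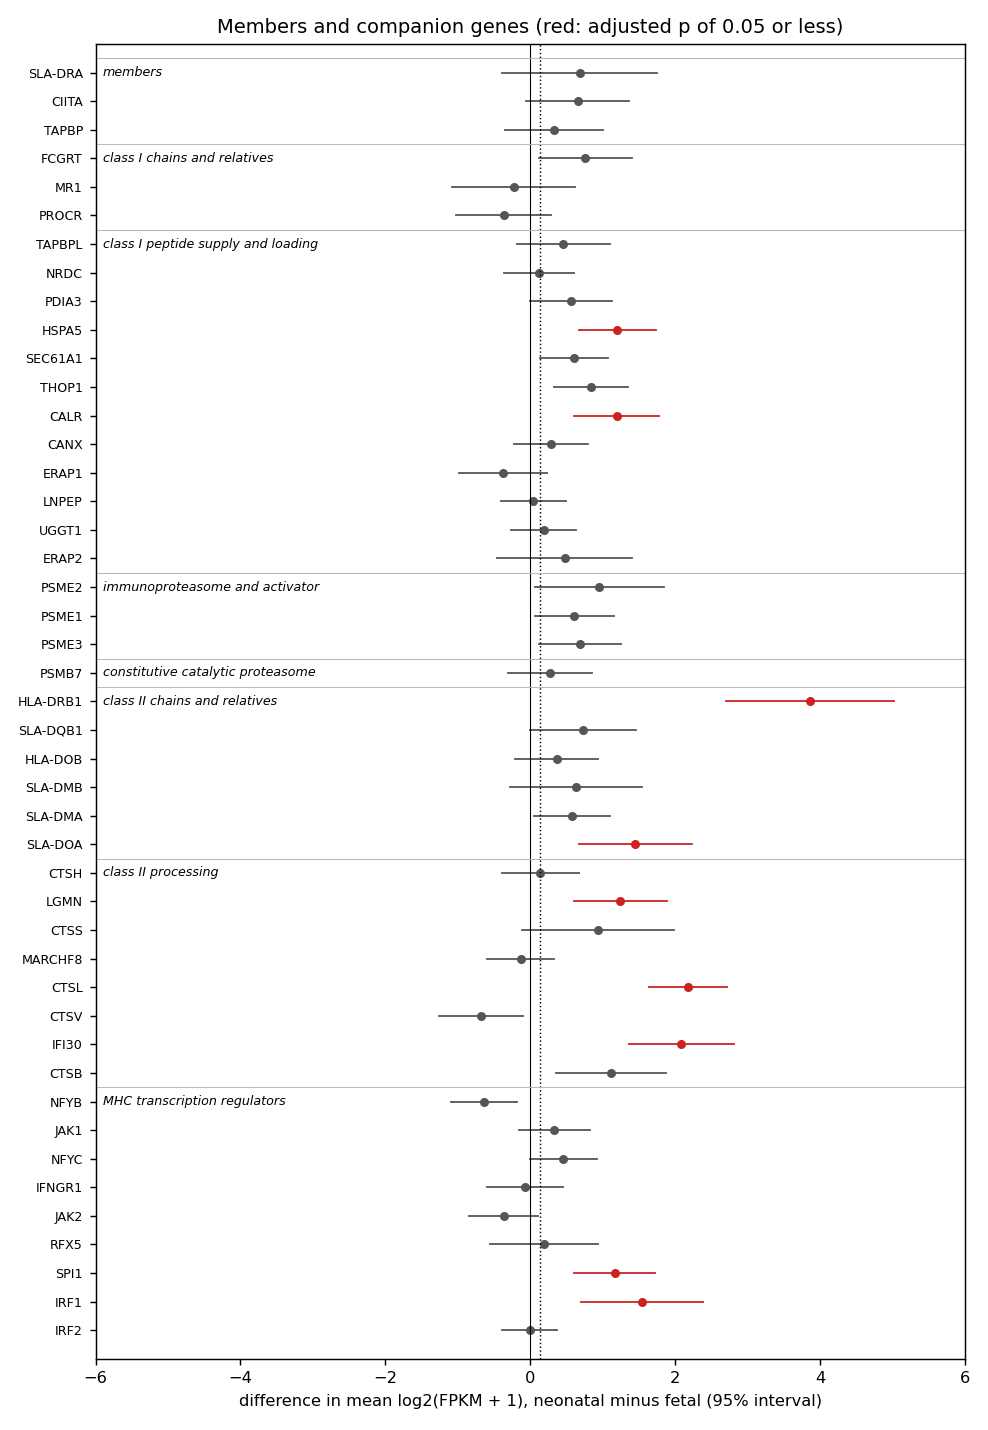
Difference in mean log2(FPKM + 1), neonatal minus fetal, with its 95% interval, for 3 members and 42 companion genes, in red where the adjusted p was 0.05 or less, beside a dotted line at the median of all mRNAs, 0.13. The intervals of SLA-DRA, CIITA and TAPBP all cross 0, HLA-DRB1 lies furthest to the right at 3.86, and CTSV lies furthest to the left at -0.69; TAP1 is left out because it was listed at 0 in 5 libraries.

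Markers of the cells that hold class II were read beside these genes. The summed FPKM of 7 pan-leukocyte markers was 126.0, 77.7 and 86.7 in the fetuses and 163.6, 283.7 and 320.1 in the neonates, so that the groups did not overlap. All 7 had a higher mean in neonates and 3 rose past the threshold, where 5.41% of all mRNAs did. ARHGDIB was named only by the study's table of changed genes, and without it the sums were 70.8 to 115.5 FPKM in fetuses and 135.6 to 283.5 FPKM in neonates, with 2 of 6 past the threshold. The most abundant of them were LAPTM5, ITGB2 and ARHGDIB, of which ARHGDIB rose by 1.82 (limma adjusted p = 0.0127) and the others missed the threshold. The macrophage sum, over 10 markers led by C1QC, C1QA and MARCO, ranged from 486.1 to 1086 in fetuses and from 878.3 to 2081 in neonates. None of the 10 passed the threshold, with 7 at an unadjusted p under 0.05, beside 3535 of all 14579 mRNAs. After median-of-ratios scaling 1 macrophage marker rose past the threshold and after quantile normalization 3 did. C1QC and AIF1 were named only by the study's table of changed genes. Of the 8 with an Ensembl name, 1 rose past the threshold after median-of-ratios scaling and 2 after quantile normalization. In both sums Neonatal1 was the lowest and Neonatal3 the highest neonate, the order that SLA-DRA and CIITA had. The lung tissue, alveolar type II, dendritic, T and NK cell and neutrophil sums had that order too. The B cell and endothelial sums did not. The size factors of Neonatal1 to Neonatal3 rose likewise, at 1.00, 1.09 and 1.15, as did their FPKM summed over all mRNAs, at 491548, 603756 and 777982. The part of scaling in this order was not tested.

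The sum of 8 markers of dendritic and activated antigen-presenting cells was 14.8 to 20.5 FPKM in fetuses and 23.2 to 55.9 FPKM in neonates, with none past the threshold. CD40 and BATF3 were named only by the study's table of changed genes. CD40, the most abundant of the 8, was at 5.09, 3.48 and 6.64 FPKM in fetuses and 8.61, 17.3 and 31.9 FPKM in neonates. It thus made up a large part of each neonatal sum. Of the 8, 7 had a higher mean in neonates and 1, CCR7, a lower one. CCR7 was at 2.43 to 3.05 FPKM in fetuses and 1.08 to 1.72 FPKM in neonates. B cell markers, 4 in number, had sums of 2.94 to 3.36 FPKM before birth and 0.707 to 2.01 FPKM after it, with none past the threshold. MS4A1 and BLK passed 0.5 FPKM in fetuses only, so the filter set their direction, and the other 2 had a lower mean in neonates. The T and NK cell sum of 11 markers overlapped, at 33.8 to 44.2 and 29.6 to 56.5 FPKM. CD247 was the largest part of each sum, at 17.4 to 32.9 FPKM, and CD8B and GZMA passed 0.5 FPKM in neonates only. Neutrophil markers, 7 in number with 3 past the threshold, summed to 83.9 to 155.8 FPKM in fetuses and 845.6 to 1319 FPKM in neonates. Of all mRNAs, 5.41% rose past the threshold. Among the 3 neutrophil markers past it, S100A9 and S100A12 were named only by the study's table of changed genes. Of the 5 with an Ensembl name, 1 passed. S100A8, S100A9 and S100A12 made up most of each sum, with S100A12 alone at 531.7 to 888.9 FPKM in neonates. ELANE passed 0.5 FPKM in fetuses only and MMP8 in neonates only, so the filter set their direction. Sums over 9 alveolar type II markers were 4912 to 5503 and 6660 to 11826 FPKM, of which SFTPC made up 60.2% to 74.3%. None of the 9 passed the threshold, 7 had a higher and 2 a lower mean in neonates, and after quantile normalization 4 had a higher and 5 a lower mean. Sums over 8 endothelial markers were 482.8 to 608.7 and 657.0 to 896.8 FPKM, but without CLDN5 284.9 to 346.5 and 277.2 to 280.7 FPKM. None of these 8 passed the threshold, with 4 higher and 4 lower in mean. After median-of-ratios scaling or quantile normalization 1 was higher and 7 lower, and 1 fell past the threshold after quantile normalization. No marker of these lists was at 0 in all libraries. The part of these cells in the differences of MHC genes was not tested.

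SLA-DRA was also set against leukocyte markers of its own library, with results that differed between markers. Its FPKM was 1.01, 0.981 and 1.19 times the pan-leukocyte sum in the fetuses and 0.506, 0.595 and 0.935 times in the neonates. The groups did not overlap in this ratio, in the direction opposite to that of the mean SLA-DRA level, and did not overlap without ARHGDIB either (1.08 to 1.38 and 0.610 to 1.06). Relative to PTPRC (CD45), carried by all leukocytes, the ratio was 14.3, 11.97 and 15.2 in the fetuses and 8.66, 10.9 and 16.9 in the neonates, and the groups overlapped. Relative to C1QA, a macrophage product, it was 0.426, 0.495 and 0.460 against 0.394, 0.471 and 0.630, again overlapping. CIITA stood at 0.407 to 0.704 times PTPRC in fetuses and 0.403 to 0.554 times in neonates. These ratios were chosen after the data had been seen and were not tested.

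**Figure D4:**
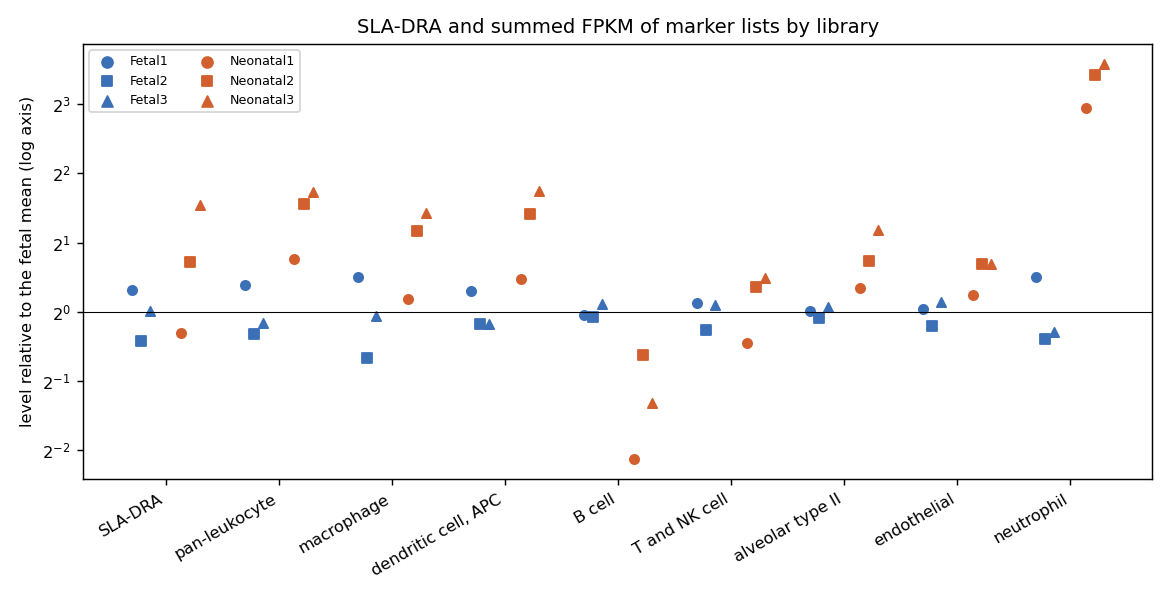
SLA-DRA and the summed FPKM of 8 marker lists in each library, divided by the fetal mean (log axis, fetal mean at the line), with blue for fetal and orange for neonatal. The pan-leukocyte sums of all neonates lie above those of all fetuses and the B cell sums below, while Neonatal1 lies below the fetal mean for SLA-DRA.

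Genes whose pattern over the 6 libraries was most like that of SLA-DRA were sought among 5532 named mRNAs with a mean of at least 5 FPKM. Likeness was the root mean square difference of the centred log2(FPKM + 1) values, where 0 is an identical pattern. GMPR, a purine nucleotide reductase, came closest at 0.123, followed by CWC15, a spliceosome protein, at 0.163 and TREX1, a DNA exonuclease, at 0.164. GMPR was at 11.5, 5.13 and 7.33 FPKM in the fetuses and at 6.82, 12.2 and 25.7 FPKM in the neonates. For CIITA the closest were EIF4E, the cap-binding translation factor, at 0.107, WDR5, a scaffold of histone methyltransferases, at 0.107, and FAM151B at 0.128. None of these 6 belongs to the antigen presentation lists.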

How the data were processed

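From total lung RNA of 6 piglets the authors made 1 strand-specific library each after ribosomal RNA removal (Ribo-Zero). The authors mapped reads to Sscrofa10.2 with TopHat2 2.1.0 and computed the deposited FPKM per gene with Cufflinks 2.2.1. All 14579 mRNAs of the deposited table exceeded 0.5 FPKM in at least 1 library. Read counts were not used here, so depth behind a value is unknown, and the spread between 3 replicates is the only error.

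Gene symbols came from Ensembl pig gene names (9478 IDs) and, where a name was missing, the study's table of mRNAs it called changed between these groups (362 IDs). Genes named only by the latter are there because of their outcome: 24.9% of them passed the threshold here, against 7.47% of those with an Ensembl name. RefSeq's Sscrofa11.1 annotation gave gene neighbours only. All 6 value columns were matched to samples by name.

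log2(FPKM + 1) was fitted on group in limma 3.58.1 (R 4.3.3, empirical Bayes with trend) over all mRNAs, with Benjamini-Hochberg adjustment over all of them; the script was tested on simulated data with 200 changed genes. The authors had tested with Cuffdiff, which needs alignments not used here. Sums, ratios and likeness were computed in Python 3.11.15 with pandas 2.3.3 and numpy 2.4.6, and figures drawn with matplotlib 3.10.9.

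The members and lists were chosen with earlier results of these data known. Named were every member measured, every companion gene past the threshold or else up to 3 per list with the largest difference, all SLA and HLA chains, at most 3 markers per list by mean FPKM, and the 3 genes most alike to a reference. SLA-DRA and CIITA replaced CD74 and TAP1 as references after the data had been seen. Genes named beyond this rule are marked so, with exceptions that were also chosen after their values were seen. These are PDIA3, TAPBPL, PTPRC, SCGB1A1, SFTPC, CLDN5, BLK, MS4A1, S100A9, S100A12, AIF1, BATF3, CCR7, ELANE, MMP8, CD8B and GZMA. Some results are not reported here; the 42 companion genes are all counted. The 3 planned ratios of inducible to constitutive proteasome subunits were not run, because a gene of each pair was not analysed here. Alternatives were other pseudocounts (0.5, 0.1), testing only genes that exceeded 1 FPKM in 3 or more samples, median-of-ratios and quantile scaling, no trend, a replicate block, and leaving out each library.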

Additional observations from a re-analysis of the deposited data

How the results depend on the processing

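The count of 0 members past the threshold did not change under any alternative; TAP1 was not among the genes tested when FPKM had to exceed 1 in 3 or more samples. The count of mRNAs past the threshold, 1001, was 401 with the replicate block and between 196 and 944 with 1 library left out. Fewer samples or residual degrees of freedom enter these fits. The replicate numbers did not pair the samples: the deviations of same-numbered libraries correlated at -0.041, -0.0043 and 0.00047. With the block HSPA5 (adjusted p = 0.0832), CALR (0.118), SLA-DOA (0.107), LGMN (0.103), SPI1 (0.0813) and IRF1 (0.0622) missed the threshold, as did IRF1 without the variance trend (adjusted p = 0.0546). Over the single genes and alternatives run, 285 values kept direction and side of the threshold, 44 lost it, 5 gained it and 1 turned direction, PSMB7 at -0.13 after quantile normalization; its cause was not tested. The 3 proteasome ratios planned were not run. Without Neonatal3 TAP1 was listed at 0 throughout and had no difference to give. Without read counts, no floor can be given for TAP1.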
